A study of Mus musculus with 3 samples.

Results

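The 10 genes described here act in cyclic AMP feedback and response and were followed by trimethylation of histone H3 on lysine 4 (H3K4me3), a mark of active and poised promoters, in mouse granulosa cells around ovulation. The genes were chosen by name, with earlier results of these data known, out of 21887 protein-coding genes in the annotation. They were Pde4b, Pde4d, Pde10a, Rgs2, Prkar2b, Sik1, Crem, Creb1, Cited2 and Cited4. Every H3K4me3 peak inside one of them or within 5 kb of it was taken, which gave 32 of 22236 peaks at 0 h, 47 of 23662 at 4 h and 33 of 20669 at 12 h. All groups were granulosa cells of wild type C57BL/6 females, postnatal day 21 to 28, primed with 4 IU of eCG, a gonadotropin that drives follicle growth. The groups were ovaries taken before hCG (0 h), 4 h after 5 IU of hCG, which stands in for the ovulatory surge of luteinizing hormone (LH), and 12 h after it. Cells were released by puncturing follicles, so that other ovarian cells can be carried along, and the number of mice behind each library is not stated. Each time had 1 library, so no difference has a replicate check and no test was made.

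The LH receptor couples to the stimulatory G protein, and the cyclic AMP that adenylyl cyclase then makes frees the catalytic subunits of protein kinase A (PKA) from their regulatory subunits. PKA phosphorylates CREB, which binds cyclic AMP response elements and recruits the coactivators CBP and p300. The signal also induces its own brakes, among them phosphodiesterases that break down cyclic AMP, repressor forms of CREM, and the kinase SIK1, which keeps the CREB coactivators of the CRTC family out of the nucleus. In granulosa cells this pathway drives both the ovulatory response and luteinization.

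The measure is the number of bp covered by peaks, which is a width and not a height. Median peak widths were 306, 315 and 333 bp at 0 h, 4 h and 12 h, and the narrowest peaks had 136, 139 and 152 bp. Changes are log2 ratios of covered bp of the later over the earlier time, minus the median ratio of all genes with peaks at both times, which was 0.12 for 4 h over 0 h, -0.14 for 12 h over 4 h and -0.02 for 12 h over 0 h. A gene was called broader or narrower past 2-fold after this centring. The depth of each library is not known, so depth and time cannot be told apart. The 12 h library ran in another lane than the other 2, so in comparisons with 12 h lane cannot be told apart from time either. Peak names at 12 h lack a tag that those at 0 h and 4 h carry, though the name of the 12 h peak list itself carries it. Whether the 12 h peaks were called with the same setting is unknown, which bears on every comparison with 12 h. More cells with the mark and more mark per cell cannot be told apart either. Of 9 granulosa markers, 7, 8 and 6 had peaks at 0 h, 4 h and 12 h, with 8757, 7401 and 4852 summed bp, and Amh had none at any time. Of 21 markers of theca, endothelial, leukocyte, oocyte and stromal cells, 14 had no peak at any time, among them Cyp17a1, Pecam1, Zp3 and Acta2. The summed covered bp of the leukocyte list, nearly all of it at Cd68, was 838, 1668 and 891 bp at 0 h, 4 h and 12 h. That of the oocyte list, all at Gdf9, was 810, 1166 and 530 bp, and that of the endothelial list, all at Kdr, 0, 347 and 164 bp. The theca list had 0, 38 and 0 bp and the stromal list 0, 139 and 192 bp. The 38 bp of the theca list is less than the narrowest peak at 4 h, 139 bp, so it is only part of a peak. The first 4 of these lists were highest at 4 h, as were most of the 10 genes, and their part in the results was not tested. Whether the bp counted at a marker belong to it or to a neighbouring gene was not tested either.

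At 4 h, 4 of the 10 genes were broader than at 0 h and none was narrower, where 5.3% of 12004 genes were broader and 3.68% narrower. The 4 were Cited4, Pde10a, Sik1 and Cited2, which encode a pair of CBP/p300-binding proteins, a phosphodiesterase and the CRTC kinase. In raw covered bp 8 of the 10 had more at 4 h than at 0 h, as did 61.3% of all genes with peaks at both times. The median centred log2 ratio of the 10 was 0.56, and the middle 50% of all genes lay between -0.27 and 0.31. Covered bp was highest at 4 h in 7 of the 10, at 12 h in Pde4d and Creb1, and at 0 h in Prkar2b. Among 11607 genes with peaks at all times, 46.4% had most at 4 h. Because the 10 genes were chosen with earlier results of these data known, the shares beside them only describe the set.

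**Figure D1:**
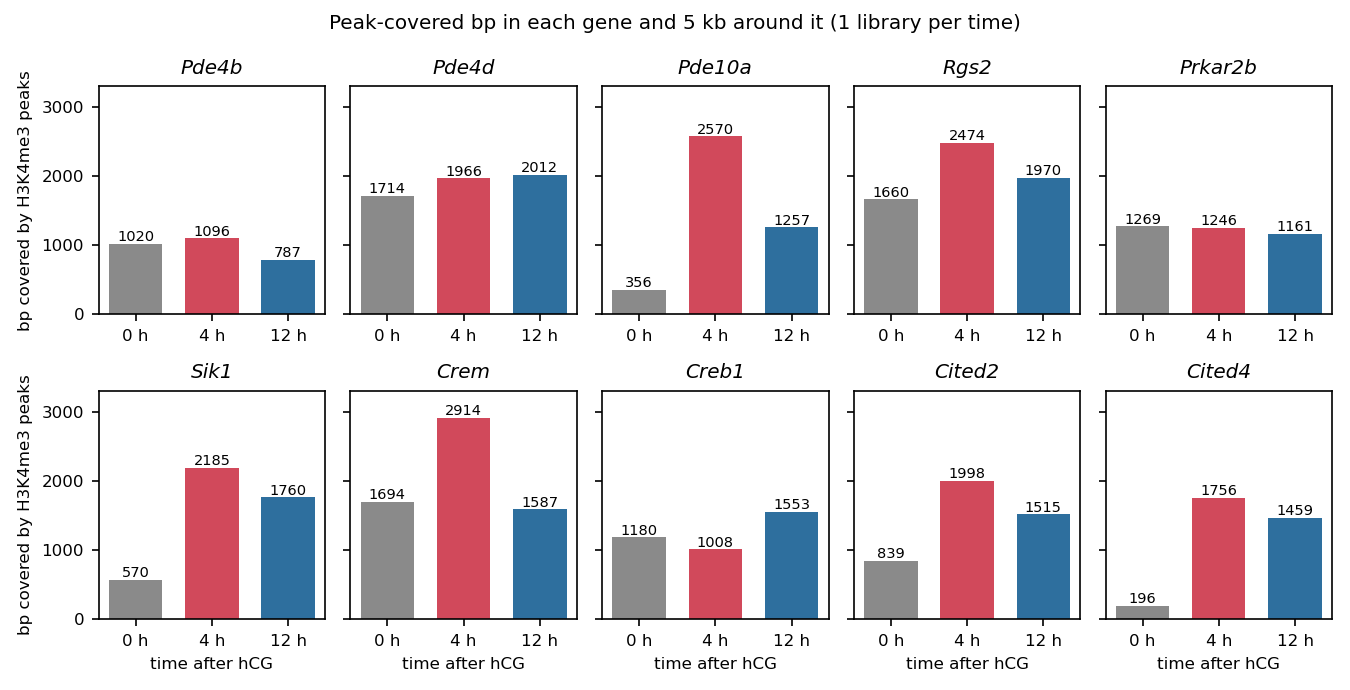
Bars give the bp covered by H3K4me3 peaks in each gene and 5 kb around it at 0 h, 4 h and 12 h after hCG, with 1 library per bar. Cited4, Pde10a and Sik1 have at least 1756 bp each at 4 h, against 196, 356 and 570 bp at 0 h, while the bars of Prkar2b stay between 1161 and 1269 bp.

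Cited4 and Cited2 encode small proteins that bind CBP and p300, Cited2 competing there with hypoxia-inducible factor. Cited4 is a gene of 1258 bp on chromosome 4, and all its covered bp lay in 1 domain (chr4:120666631-120668468) that began 68 bp downstream of the annotated start. It had 196 bp at 0 h, 1756 at 4 h and 1459 at 12 h. Its 0 h value was a single peak in the first part of the gene, and at 4 h a peak of 1453 bp ran past the gene's far end. The centred log2 ratio was 3.05 for 4 h over 0 h, in place 6 from the top among 12004 genes, and 2.91 for 12 h over 0 h, in place 12 among 11729. Its single 0 h peak of 196 bp was near the narrowest width of that library, so the size of these ratios and their places depend on that floor. At Cited2, on chromosome 10, covered bp was 839 at 0 h, 1998 at 4 h and 1515 at 12 h, in a domain that spans the whole gene (chr10:17722500-17725966). Its 0 h library held a 286 bp peak upstream of the start that was absent from the later libraries, and 553 bp downstream of the start, while all 1998 bp at 4 h and all 1515 bp at 12 h lay downstream. The centred ratio of Cited2 was 1.14 for 4 h over 0 h and 0.87 for 12 h over 0 h. With peaks of a library joined where at most 1 kb apart, the first of these was 0.48, below the limit.

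Sik1 showed the same order of times. It had 570 bp at 0 h, 2185 at 4 h and 1760 at 12 h, all in 1 domain at the higher-coordinate end of the gene (chr17:31853046-31855743). The 0 h peaks, of 429 and 141 bp, lay within the 1 kb next to that end. At 4 h a peak of 1552 bp lay farther into the gene, and at 12 h a peak of 832 bp remained in the same stretch. The centred ratio was 1.82 for 4 h over 0 h and 1.65 for 12 h over 0 h.

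Crem, on chromosome 18, makes activators and repressors of CREB target genes from one locus, and its short repressor ICER is known to come from a cyclic AMP-inducible promoter inside the gene. It carried 2 domains. The one inside the gene, 12.7 kb from the nearer gene end (chr18:3279068-3281759), had 782 bp at 0 h, 1820 at 4 h and 654 at 12 h. The 4 h library held 6 peaks there, of which 4 lay on the lower-coordinate side of all peaks of the other 2 libraries. The domain at the higher-coordinate end (chr18:3335326-3338166) had 912, 1094 and 933 bp. The centred ratio for 4 h over 0 h was 1.11 in the inner domain and 0.15 at the gene end, and for 12 h over 4 h it was -1.37 and -0.12. Over the whole gene the 2 domains together gave 1694, 2914 and 1587 bp and a ratio of 0.67 at 4 h over 0 h, within the limit. Creb1, the factor that PKA phosphorylates, had 1180 bp at 0 h, 1008 at 4 h and 1553 at 12 h, in a single domain across its start (chr1:64531903-64534169). Its centred ratio was -0.34 for 4 h over 0 h and 0.41 for 12 h over 0 h. Most of the difference lay upstream of the start, with 333, 139 and 703 bp at the 3 times, while 847, 869 and 850 bp lay downstream.

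**Figure D2:**
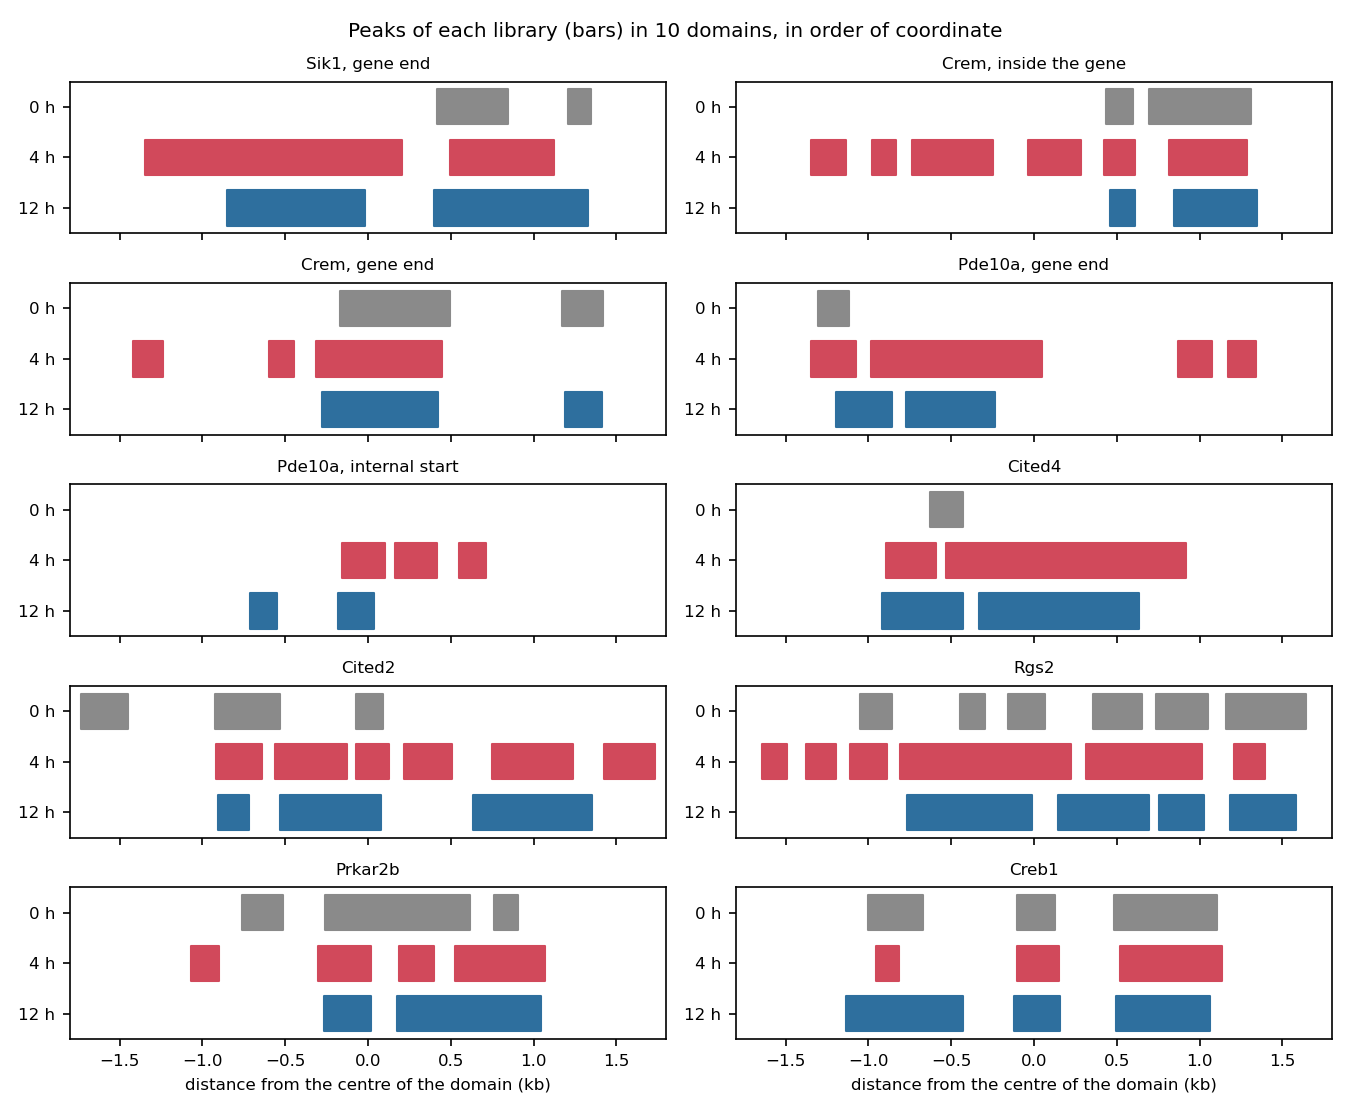
Each panel shows 1 domain, with bars for the peaks of the 0 h, 4 h and 12 h libraries and the distance from the domain's centre in kb on the x axis, in order of coordinate. The inner Crem domain is longest at 4 h with 1820 covered bp, the internal start of Pde10a has no peak at 0 h, and the Prkar2b domain, with 1269, 1246 and 1161 covered bp, has peaks at all 3 times.

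Among the phosphodiesterases, Pde10a, which breaks down both cyclic AMP and cyclic GMP, differed most between times. It had 356 bp at 0 h, 2570 at 4 h and 1257 at 12 h over 3 domains. The domain at the start of the gene (chr17:8525291-8527978) had 187, 1679 and 873 bp, with centred ratios of 3.06 for 4 h over 0 h and 2.22 for 12 h over 0 h. A second domain around the annotated internal start at 8801745 (chr17:8801313-8802738) had no peak at 0 h, 682 bp at 4 h and 384 bp at 12 h. The third, with 169, 209 and 0 bp, lay past the far end of the gene and within 5 kb of 1700010I14Rik. For the whole gene the centred ratio was 2.74 for 4 h over 0 h, in place 15 among 12004 genes, and 1.84 for 12 h over 0 h. The 0 h peaks, of 187 and 169 bp, were near the narrowest width of that library, and the size of these ratios depends on that floor.

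Pde4b and Pde4d encode cyclic AMP-specific phosphodiesterases in long and short forms from several promoters. At Pde4b the main domain lay 273 bp downstream of an internal annotated start (chr4:102570333-102572022) and had 721, 1096 and 787 bp at 0 h, 4 h and 12 h. Another, next to a second internal start (chr4:102589523-102589821), had 299 bp at 0 h and no peak at 4 h or 12 h. The annotated start at 102421555 had no peak within 1 kb. Pde4d spans 1301793 bp on chromosome 13 and had 6 domains, all inside the gene and at least 51.8 kb from its ends, and none at the annotated start at 108654177. Of these, 4 had peaks at all times. The one nearest the gene's far end (chr13:109902793-109904219) had 389, 952 and 764 bp and a centred ratio of 1.18 for 4 h over 0 h. The next one with peaks at all times (chr13:109685480-109686166) had 290, 618 and 473 bp and a ratio of 0.98. The remaining domains went other ways, with 223, 188 and 153 bp, 334, 208 and 448 bp, 478 bp at 0 h alone, and 174 bp at 12 h alone. Summed over the gene, Pde4d had 1714, 1966 and 2012 bp and Pde4b 1020, 1096 and 787 bp, and neither passed the limit in any comparison.

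Rgs2, a GTPase activator that acts mainly on Gq, had 1660 bp at 0 h, 2474 at 4 h and 1970 at 12 h in a domain that fills most of the gene (chr1:144000776-144004061). Its centred ratio was 0.46 for 4 h over 0 h and 0.27 for 12 h over 0 h. The 6 peaks of the 0 h library were at most 486 bp wide, while the widest was 1035 bp at 4 h and 753 bp at 12 h. Prkar2b, the RII beta regulatory subunit of PKA, had the smallest spread of the 10, with 1269, 1246 and 1161 bp in a domain just downstream of its annotated starts (chr12:32058396-32060537). Its centred ratios lay between -0.14 and 0.04 over the 3 comparisons.

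Sequences are shown for the starts with a RefSeq promoter entry whose peaks differed most between times, and for Rgs2 and Creb1, whose peaks passed no limit. Each is the 250 bases before an annotated start on its own strand, 5′ to 3′, from RefSeq on GRCm38.p6. Capitals mark half-sites of the cyclic AMP response element (TGACG or CGTCA) and GC boxes (GGGCGG or CCGCCC).
Cited4, chr4:120666313-120666562, plus strand: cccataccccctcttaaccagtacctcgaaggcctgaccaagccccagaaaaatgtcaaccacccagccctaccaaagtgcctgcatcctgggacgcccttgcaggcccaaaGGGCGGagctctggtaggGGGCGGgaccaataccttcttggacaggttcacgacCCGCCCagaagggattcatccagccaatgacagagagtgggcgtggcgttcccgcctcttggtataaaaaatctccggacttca
Cited2, chr10:17722978-17723227, plus strand: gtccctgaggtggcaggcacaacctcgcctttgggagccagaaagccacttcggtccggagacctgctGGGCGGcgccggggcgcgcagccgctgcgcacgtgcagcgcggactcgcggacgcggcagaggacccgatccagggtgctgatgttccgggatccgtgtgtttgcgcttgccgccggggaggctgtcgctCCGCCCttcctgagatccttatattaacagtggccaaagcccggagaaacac
Pde10a internal start, chr17:8801495-8801744, plus strand: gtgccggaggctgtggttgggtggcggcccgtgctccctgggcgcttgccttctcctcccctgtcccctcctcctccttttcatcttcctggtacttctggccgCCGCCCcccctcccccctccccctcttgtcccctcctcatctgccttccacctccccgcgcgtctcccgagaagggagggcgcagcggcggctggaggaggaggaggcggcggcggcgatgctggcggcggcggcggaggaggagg
Rgs2, chr1:144004150-144004399, minus strand: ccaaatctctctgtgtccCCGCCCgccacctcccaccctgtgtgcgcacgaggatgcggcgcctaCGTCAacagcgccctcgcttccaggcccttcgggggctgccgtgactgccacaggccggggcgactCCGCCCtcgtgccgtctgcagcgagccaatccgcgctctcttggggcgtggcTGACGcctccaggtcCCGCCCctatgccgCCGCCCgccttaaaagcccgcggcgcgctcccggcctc
Creb1, chr1:64532554-64532803, plus strand: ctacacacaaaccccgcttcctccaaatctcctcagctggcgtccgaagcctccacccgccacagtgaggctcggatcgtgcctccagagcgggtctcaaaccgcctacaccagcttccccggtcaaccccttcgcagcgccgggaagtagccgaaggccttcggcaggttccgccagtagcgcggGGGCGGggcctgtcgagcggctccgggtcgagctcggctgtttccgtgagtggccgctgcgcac

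RefSeq entries were matched for 8 of the 10 genes, with 13 annotated starts, and not for Sik1 and Crem. None of the 13 lay at the domain at the start of the Pde10a gene (chr17:8525291-8527978), so the bases before that end were not searched. The full response element TGACGTCA was found on either strand before none of the 13 starts, and before 1.55% of 32851 starts in all. A half-site, counted on both strands and also inside a full site, was present before 2 of the 13, Rgs2 and 1 start of Pde4b that had no peak, against 17.8% of all. Rgs2 held 2 of them, 185 and 67 bases before its start. The AP-1 motif TGANTCA was found before none of the 13 and before 6.75% of all. A GC box on either strand was present before 6 of the 13 and 32.7% of all, with 3 at Cited4, 2 at Cited2, 4 each at Rgs2 and 1 start of Prkar2b, and 1 each at Creb1 and the internal start of Pde10a.

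Of the 13 annotated starts, 9, in 7 genes, had a peak within 1 kb at some time. The start base itself was covered by a peak at none of the 9 at any time, and at 10.6%, 13.3% and 12.0% of 12928 such starts in all at 0 h, 4 h and 12 h. More bp was covered in the 2.5 kb downstream than in the 2.5 kb upstream at 7, 8 and 8 of the 9, against 69.5%, 72.7% and 70.2% of all. The 2 starts of Prkar2b share the same peaks.

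The 10 genes held 19 domains, where a domain joins peaks of all libraries at most 1 kb apart. Of these, 7 lay within 1 kb of a gene end, 11 inside a gene and 1 past an end, and 14 had peaks at all 3 times (73.7%, against 73.2% of 14809 domains). For 4 h over 0 h, 6 of the 15 domains with peaks at both times were broader, at Cited4, Pde10a, Sik1, Cited2, Crem and Pde4d, against 6.32% of all domains, and none was narrower (4.79%). The internal start of Pde10a gained a domain (12.4% of all domains were gained) and Pde4b and Pde4d lost 1 each (6.27% lost). For 12 h over 4 h, 1 domain was broader, in Pde4d, and 1 was narrower, the inner one of Crem, against 3.97% and 5.25% of all. A domain of Pde4d was gained and the one past the end of Pde10a was lost (5.62% and 13.3% of all). For 12 h over 0 h, 3 domains were broader, at Cited4, Pde10a and Sik1, and none was narrower (6.36% and 5.67% of all). Over the same interval Pde10a and Pde4d gained 1 domain each, and Pde4b, Pde4d and Pde10a lost 1 each (8.72% and 10.4% of all). In these shares, broader and narrower ones are of all domains with peaks at both times. Gained and lost ones are of all domains with a peak at either time.

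The comparison of 12 h with 4 h found no gene of the 10 past the limit, where 3.36% of 11964 genes were broader and 4.48% narrower. Raw covered bp was higher at 12 h in 2 of the 10, and in 35.9% of all genes with peaks at both times. The lowest centred ratios were those of Pde10a at -0.89 and Crem at -0.74, and the highest was that of Creb1 at 0.76. The ratio of Pde10a was -1.03 without centring and also -1.03 with peaks joined. Against 0 h, 3 of the 10 were broader at 12 h, namely Cited4, Pde10a and Sik1, and none was narrower, where 5.35% of 11729 genes were broader and 4.93% narrower. The median centred ratio of the 10 was -0.18 for 12 h over 4 h and 0.34 for 12 h over 0 h. These comparisons share libraries.

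**Figure D3:**
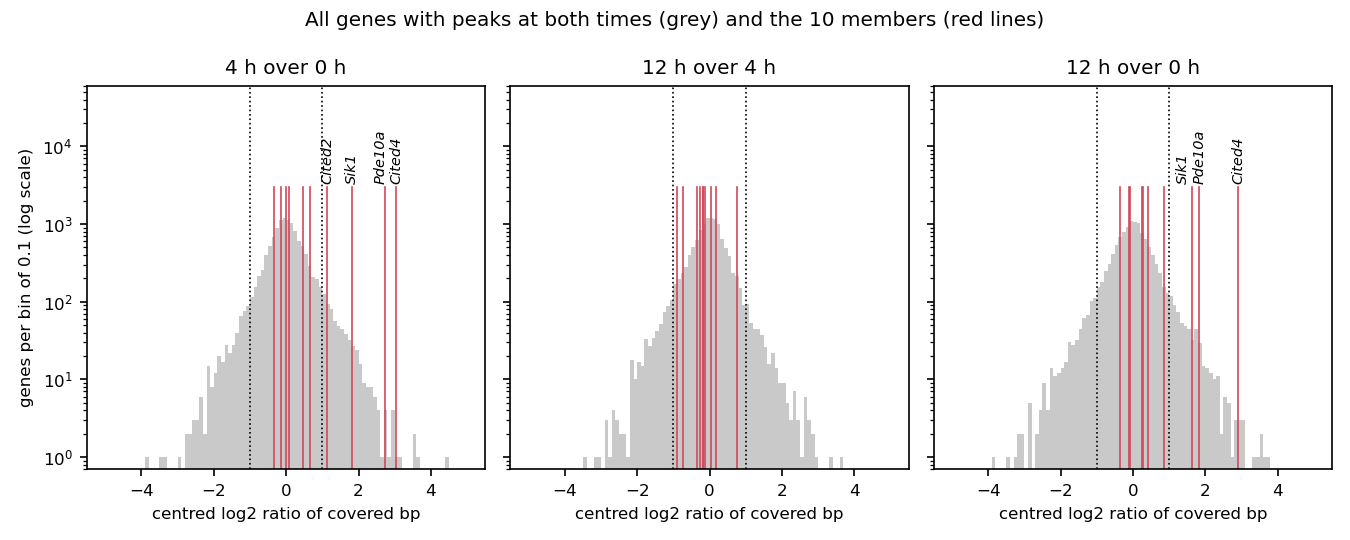
Grey bars count all genes with peaks at both times by centred log2 ratio of covered bp (log scale on the y axis), red lines mark the 10 genes and dotted lines the 2-fold limits. At 4 h over 0 h Cited4, Pde10a, Sik1 and Cited2 lie past the right limit, and at 12 h over 4 h no red line lies past either.

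Other genes of the pathway were taken from 5 lists with 79 genes, of which 57 had peaks at both 0 h and 4 h. Of these 57, 3 were broader and 2 narrower at 4 h (5.3% and 3.68% of all genes), with a median centred ratio of 0.12, and 5 further genes gained and 3 lost all peaks, where 5.76% and 2.43% of all genes with a peak at either time did. The broader ones were Pde8b, a cyclic AMP-specific phosphodiesterase, with 529 bp at 4 h against 136 before hCG, the transcription factor gene Creb3 with 1963 against 867, and Prkar1b, a PKA regulatory subunit gene, with 1174 against 530. Rapgef4, which encodes the cyclic AMP sensor EPAC2, was narrower, with 184 bp at 4 h against 1004 before hCG, and so, just past the limit, was the adenylyl cyclase gene Adcy9 with 366 against 676. The 0 h value of Pde8b is the narrowest width of that library. Rgs3 and Rapgef3 were among the 3 losses at 4 h, with 286 and 238 bp at 0 h. Here and below, shares of all genes broader or narrower are of genes with peaks at both times. Those gained or lost are of genes with a peak at either time. Whether the bp counted at a pathway gene belong to it or to a neighbouring gene was not tested.

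Of 15 adenylyl cyclase and G protein genes, 5 had no peak at 0 h or 4 h and 4 gained peaks at 4 h. Among all genes with a peak at either time 5.76% did. The 4 had from 167 to 328 bp at 4 h, the most at Adcy5, where the narrowest peak had 139 bp. At 12 h, 2 of these 4, Adcy5 among them, had no peak again. Rgs16, a regulator of G protein signalling, was the other gain of the lists, with 364 bp. In the list of RGS proteins, arrestins and receptor kinases, 6 of 8 genes with peaks at both times had a centred ratio above 0, against 50% of all genes. Its median of 0.55 was the highest of the lists, and none of its genes passed the limit. Medians were 0.03 for cyclases and G proteins, 0.06 for other phosphodiesterases and 0.25 for CREB/ATF factors, coactivators and SIKs. The list of PKA subunits, inhibitors, anchoring proteins and EPAC had -0.08. Among CREB/ATF factors, coactivators and SIKs, all 16 had peaks at all times, and the other SIK genes had ratios of 0.70 (Sik2) and 0.21 (Sik3), beside 1.82 for Sik1.

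At 12 h over 0 h, 5 of 55 pathway genes were broader and 3 narrower (5.35% and 4.93% of all genes), with a median of 0.18. Prkaca, the catalytic subunit alpha of PKA, had 2215 bp at 12 h against 1007 before hCG, Creb3 1850 against 867, and Cited1, an X-linked relative of Cited2 and Cited4, 278 against 136, the narrowest width at 0 h. In the other direction were Creb5 with 197 bp at 12 h against 640 before hCG, and the phosphodiesterase genes Pde7b with 520 against 1519 and Pde11a with 231 against 607. Rapgef4 and Pde9a were among 5 losses (4.6% of all genes) and had no peak at 12 h, against 1004 and 779 bp before hCG. Among 4 gains (4.37% of all genes), Rgs16 and Adcy6 had 485 and 418 bp at 12 h and none at 0 h. Between 12 h and 4 h, 1 of 56 was broader, Pde4c with 708 bp against 233, and 3 were narrower, Creb5 (197 and 725), Pde7b (520 and 1482) and Pde11a (231 and 605), where 3.36% and 4.48% of all genes were. In the same interval Rgs3 and Pde2a were among 3 gains (2.51% of all genes), with 502 and 310 bp at 12 h. Rgs3 and the remaining gain, Akap5, had peaks before hCG too, with 286 and 230 bp, and none at 4 h. Pde8b and Pde9a were among 6 losses (6.06%), with 529 and 433 bp at 4 h.

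**Figure D4:**
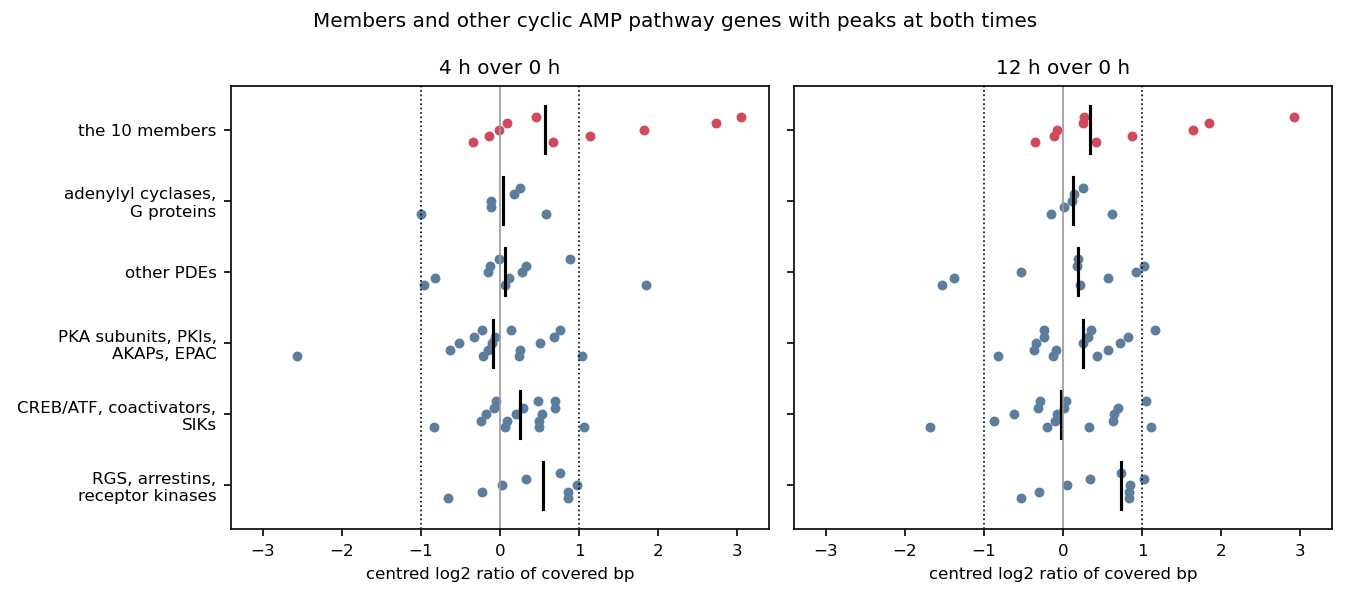
Points are genes with peaks at both times, by centred log2 ratio of covered bp on the x axis, for the 10 genes (red) and 5 pathway lists (blue), and black bars are medians. The medians of the 10 are 0.56 at 4 h over 0 h and 0.34 at 12 h over 0 h, and those of all pathway genes together are 0.12 and 0.18.

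The genes most like each broader member were taken by the distance between log2(covered bp + 100) values over the 3 libraries. For Cited4 they were Wnt5b (181, 1461 and 1320 bp at 0 h, 4 h and 12 h), Rnf180 (136, 1781 and 1581) and the AP-1 gene Junb (136, 1839 and 1579), at distances of 0.29, 0.34 and 0.35. For Cited2 they were Rpl13, Pttg1ip and Cebpb (953, 2046 and 1483 bp), at 0.12, 0.16 and 0.17. For Sik1 they were Zxdc, Hs6st1 and Dhcr7 (735, 2243 and 1794 bp), at 0.23, 0.31 and 0.32. For Pde10a they were Ctps, Adgrv1 and Gm13889, at 0.31, 0.33 and 0.54. The distances rest on 3 libraries, and how many further genes lie nearly as close was not counted.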

How the data were processed

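H3K4me3 was profiled by chromatin immunoprecipitation and sequencing. Per the labels' protocols, library DNA went through 18 PCR cycles and was read on an Illumina GAIIx instrument. The authors deposited 1 peak list per library with chromosome, start and end, and no score, height or depth. Tools named in the submitters' processing notes are CASAVA 1.8, Bowtie2 2.2.3 and MACS2 2.0.9, with mm10 as the build. No source here states the peak threshold or whether the input was used. Peak names carry the tag nolambda at 0 h and 4 h and lack it at 12 h, per the file contents. The name of the 12 h peak list does carry it.

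Autosomal peaks and those on X and Y were set against RefSeq genes and promoter sequences of GRCm38.p6, the same build as mm10. Covered bp, domains and ratios were computed with Python 3.11.15, numpy 2.4.6 and pandas 2.3.3, and the code was tested on simulated data. The 10 genes and the pathway lists were chosen with earlier results of these data known. Named pathway genes are, per comparison, up to 3 broader, 3 narrower, 2 gained and 2 lost genes with the largest values, and 3 like genes per broader member. Sik2, Sik3, Akap5, the window around starts and the surrounding domains were chosen after values were seen. Alternatives were the flank, narrow peaks left out, equal numbers of peaks, joined peaks, the fold limit, centring, gene ends alone, genes with neighbours left out, and the joining distance.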

Additional observations from a re-analysis of the deposited data

How the results depend on the processing

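The counts of 4 broader genes at 4 h over 0 h and 3 at 12 h over 0 h moved by no more than 1.5 times under any of 9 alternatives. With joined peaks the first was 3, as Cited2 fell below the limit. Leaving out genes with neighbours drops Pde10a by design (3 and 2), and a limit of 1.5-fold can only add (5 and 4), so neither checks these counts. For 12 h over 4 h, where none passed, 1 was lower with joined peaks and 1 without centring (Pde10a both times). Of all genes with a peak at either time, 13.6% and 11.9% were lower under these settings, losses included. With a limit of 1.5-fold 1 was higher and 2 were lower, where 11.3% and 17.4% of all genes were, gains and losses included. With peaks joined into domains at 500 bp, 4 of 23 domains were lower at 4 h over 0 h and 4 at 12 h over 4 h. At 1 kb it was 2 of 19 each, and joining at 2 kb moved no count past 1.5 times. Shares of all domains were not counted at the other joining distances. The ratio for 4 h over 0 h lay between 3.04 and 3.16 for Cited4, 1.35 and 2.24 for Sik1 and 0.48 and 1.45 for Cited2 over the 9 alternatives, and between 2.73 and 3.55 for Pde10a over the 8 that include it. Of 261 values of single genes, 253 stayed on their side of the limit, 7 newly passed it, 1 no longer did, and none called changed sign. Leaving out genes with neighbours and lowering the limit to 1.5-fold change no ratio. The former could not move a single gene across the limit, and the latter could only add calls, so their values in these counts are no check. No paired analysis was possible because each time has 1 library, and for the same reason no replicate could be left out. The depth of the libraries, which sets how much of a weak domain is called, is unknown.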

Other observations

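Cited4 was not the one gene of its neighbourhood with a much broader domain. Of 10 other domains within 500 kb of it, 8 had peaks at 0 h and 4 h, with a median centred ratio of -0.12. One of them passed the limit upward, the domain at Ctps, which encodes CTP synthase, 96.7 kb away (chr4:120567555-120569903), with 433, 2339 and 1426 bp at 0 h, 4 h and 12 h and centred ratios of 2.32 for 4 h over 0 h and 1.72 for 12 h over 0 h. Ctps is also the gene most like Pde10a over the 3 libraries. Another, at Nfyc, was narrower at 4 h, with 526 bp at 4 h and 1256 at 0 h. Around Sik1, Pde10a and Cited2 no other domain within 500 kb was broader at 4 h over 0 h, among 12, 4 and 5 with peaks at both times, whose medians were -0.31, -0.41 and 0.04. Near Sik1 the domains at Cbs (522 bp at 0 h, 171 at 4 h) and Notch3 (341 and 169) were narrower at 4 h. Of all domains with peaks at both times, 6.32% were broader and 4.79% narrower. These neighbours were looked up after the values of the 10 genes were seen.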
